A study of Mus musculus with 6 samples.

Results

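The genes described here are 10 guidance genes of bone marrow-derived macrophages (BMDMs): the netrin receptor gene *Unc5b*, the neuropilin genes *Nrp1* and *Nrp2*, the plexin genes *Plxna1*, *Plxnb2*, *Plxnc1* and *Plxnd1*, and the class 4 semaphorin genes *Sema4a*, *Sema4b* and *Sema4d*. They are 10 of the 24445 genes that had a row in the deposited table of read counts. The genes were listed with earlier results of these data in view, and the increase of *Unc5b* was known by then. Where a gene had several transcript rows, 1 row was selected on its count summed across all 6 libraries, the highest being taken, a choice that does not use the difference between the groups.

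BMDMs are macrophages grown from bone marrow precursors, here in medium conditioned by L929 cells, and all libraries came from BMDMs of mice on a C57Bl/6J background that had been treated with the type 2 cytokine IL-4. In the AclyM-KO group (3 libraries), loxP sites flank exon 9 of *Acly* and a Cre recombinase under control of the myeloid gene *Lyz2* deletes it. In the Ctrl group (3 libraries), the cells came from littermates with the same floxed alleles, labelled WT. The comparison asks which transcripts differ between IL-4-treated macrophages of mice with and without this Cre-driven deletion in *Acly*. The Cre is named for AclyM-KO only, so effects of the Cre and of the deletion cannot be told apart. The protein, ATP-citrate lyase, was not measured here. Summed over 1 row per gene, the depth was 14739689, 12151975 and 13074469 counts for Ctrl and 14787741, 15587283 and 14745614 counts for AclyM-KO. The study describes its replicates as biological in one place and as technical, from mice that were pooled, in another, so p-values measure the spread between libraries only. Sex and age of the mice were not given in the sources used here. In bulk RNA, fewer cells of a type and less RNA per cell cannot be told apart.

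*Acly*, whose enzyme turns cytosolic citrate into acetyl-CoA, was measured first as a check of the labels. It reached 332.2, 321.0 and 349.6 CPM (read counts scaled to a common library size) in Ctrl and 146.0, 133.7 and 135.5 CPM in AclyM-KO. The groups did not overlap, and the AclyM-KO mean was 41.4% of the Ctrl mean (log2 fold change -1.27, SE 0.053, adjusted p = 5.23e-10 in edgeR's quasi-likelihood test). The macrophage markers *Adgre1*, *Csf1r*, *Cd68*, *Itgam*, *Fcgr1*, *Mertk* and *Lyz2* were all above the filter on low counts, as the labelled cell type requires. The receptor gene *Csf1r* stood at 2434 ± 142 CPM in Ctrl and 2119 ± 96.8 CPM in AclyM-KO (SD, n = 3). *Lyz2*, the lysozyme gene whose promoter drives the Cre, was the most abundant of them and fell by 0.67 on the log2 scale, and the phagocytic receptor gene *Mertk* fell by 0.73.

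Semaphorins are secreted or membrane-bound cues that were first studied for steering growing axons and that also act on immune cells and vessels. Plexins are their main receptors and carry a GTPase-activating domain that acts on small GTPases of the Ras and Rap families, and neuropilins are co-receptors that bind class 3 semaphorins and forms of VEGF. Class 4 semaphorins are anchored in the membrane and signal to plexins of the B and D classes, with further receptors on lymphocytes. Netrin-1 binds receptors of the DCC and Unc5 families. In macrophages, netrin-1 and Unc5b are known for keeping cells in place in inflamed tissue, and neuropilin-1 for responses to semaphorins and VEGF.

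The sequence just before the start site is shown for *Unc5b* and *Sema4b*, since they are the members with the largest differences in each direction. Both are the 250 bases before the RefSeq start site on GRCm38.p6, written 5′ to 3′ on the strand of the gene. That of *Unc5b* is chr10:60831582-60831831 on the minus strand, and that of *Sema4b* is chr7:80186620-80186869 on the plus strand. Capitals mark ACGTG, the core letters of sites bound by hypoxia-inducible factors, which are also part of the E-box CACGTG.
Unc5b: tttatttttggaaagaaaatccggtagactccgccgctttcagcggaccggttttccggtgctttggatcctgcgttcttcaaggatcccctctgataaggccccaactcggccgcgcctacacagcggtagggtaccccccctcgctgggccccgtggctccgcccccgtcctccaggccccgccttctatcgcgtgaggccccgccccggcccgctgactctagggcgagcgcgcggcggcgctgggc
Sema4b: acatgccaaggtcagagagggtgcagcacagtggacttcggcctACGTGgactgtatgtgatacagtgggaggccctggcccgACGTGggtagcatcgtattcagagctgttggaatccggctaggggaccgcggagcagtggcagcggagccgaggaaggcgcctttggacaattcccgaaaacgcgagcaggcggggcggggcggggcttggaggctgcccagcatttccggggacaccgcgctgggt

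With the 50 bases after the start site added, the *Unc5b* window holds 36 CpG dinucleotides and 69.7% G or C, and the *Sema4b* window holds 26 CpG and 65.3%. The median over all RefSeq promoter windows of this length was 7 CpG. Windows of 9 of the 10 members were in the table, and *Plxna1* had no entry. ACGTG was searched on both strands and was present in 19.7% of 32544 windows. Among the 9 members, *Sema4b* held it, at bases -206 to -202 and at -167 to -163 from the start site. A STAT6 motif (TTC and GAA with 4 bases of any kind between them) occurs in 6.98% of all windows and GAGGAAGT, a form of the PU.1 site, in 3.11%, both searched on both strands, and neither was found in the 9 windows. For each gene, the window nearest to the start of its row's transcript was searched. For *Sema4d* that window lies 36990 bases away from this start, and *Plxnb2*, *Sema4a*, *Sema4b* and *Sema4d* have 2 to 4 windows in the table, of which 1 each was searched. A match describes letters and not a bound site, and binding was not measured here.

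Of the 10 genes, *Unc5b* and *Plxna1* were higher in AclyM-KO, 6 were lower, and *Nrp1* and *Plxnc1* did not pass the test. Here a gene rose or fell when its adjusted p-value over all 12023 genes tested was under 0.05. That limit was passed by 24.9% of these genes, with 12.4% rising and 12.6% falling. A gene was called when its log2 fold change was also beyond 0.58 in either direction, as 5.55% of the genes tested were, with 2.98% called higher and 2.57% called lower. *Unc5b* was called higher and *Sema4b* lower, while the other 8 were not called. CPM values of the groups did not overlap for 8 of the 10 members and for 40.2% of all genes tested. The median log2 fold change was -0.22 over the members and 0.0014 over all genes tested. Since the list was drawn up with these data in view, nothing is read from the members' counts against these shares. All 10 members passed the filter on low counts, and 7 of them had a mean of at least 100 CPM in each group.

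**Figure D1:**
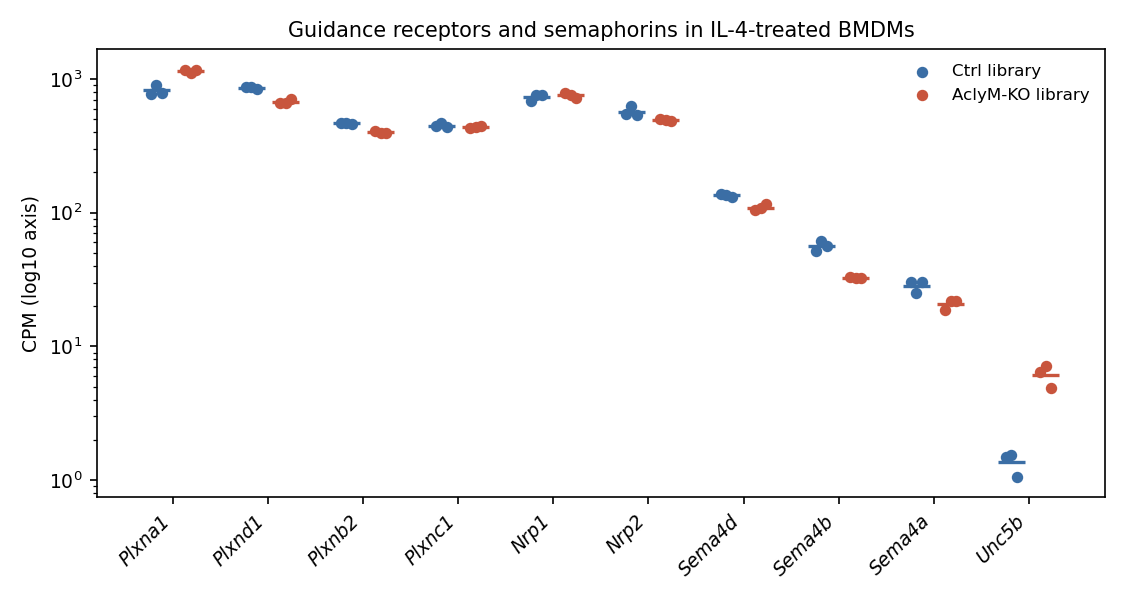
CPM (log10 axis) of the 10 guidance genes in each of the 3 Ctrl (blue) and 3 AclyM-KO (red) libraries, with the group mean as a bar. The groups are apart for every gene except *Nrp1* and *Plxnc1*, and *Unc5b* has both the lowest level and the widest gap.

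The 3 class 4 semaphorins all fell. *Sema4b*, a membrane semaphorin, was at 51.96, 61.59 and 56.62 CPM in Ctrl and at 33.02, 32.55 and 32.34 CPM in AclyM-KO. The highest AclyM-KO library lay far under the lowest Ctrl library, and the AclyM-KO mean was 57.5% of the Ctrl mean (56.7 ± 4.82 against 32.6 ± 0.345 CPM, SD, n = 3). Its log2 fold change was -0.79 (SE 0.069, 95% interval -0.94 to -0.65, edgeR adjusted p = 8.75e-07), and it is the one semaphorin that was called. *Sema4b* spans chr7:80186841-80226527 on the plus strand of GRCm38, and its row stands for a transcript of 15 exons.

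*Sema4a*, known as a ligand that costimulates T cells, was the least abundant of the 3. It had 30.20, 24.95 and 30.21 CPM in Ctrl and 18.69, 21.68 and 21.86 CPM in AclyM-KO. The groups came close, with the second Ctrl library only a few CPM above the highest AclyM-KO library, but did not overlap. The log2 fold change was -0.46 with a 95% interval of -0.66 to -0.26 (edgeR adjusted p = 0.00227), so it lay short of the fold change limit while its interval crossed it. *Sema4a* spans chr3:88435959-88461182 on the minus strand, and the table holds 4 transcript rows for it, with totals between 2078 and 2080 counts.

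*Sema4d*, which encodes the ligand of plexin-B1 and of CD72, was the most abundant semaphorin. Its values were 138.6, 134.8 and 131.8 CPM in Ctrl and 103.8, 107.4 and 116.0 CPM in AclyM-KO. Every AclyM-KO library was lower than every Ctrl library, and the mean fell to 80.7% of Ctrl (log2 fold change -0.31, SE 0.053, edgeR adjusted p = 5.88e-04). It spans chr13:51685529-51793747 on the minus strand. The size of the decrease ranged from 0.31 to 0.79 on the log2 scale among the 3 ligands.

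Ratios within a library set genes side by side without any scaling between libraries. They were formed after the values had been seen. The count of *Sema4b* over that of *Sema4d* was 0.375, 0.457 and 0.430 in Ctrl and 0.318, 0.303 and 0.279 in AclyM-KO. The ratio was lower in every AclyM-KO library than in every Ctrl library (exact permutation test, two-sided p = 0.1, the smallest that 3 against 3 libraries can give). For *Sema4a* over *Sema4d* the groups overlapped, at 0.211 ± 0.0229 in Ctrl and 0.190 ± 0.0110 in AclyM-KO (SD, n = 3, exact p = 0.3).

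The 4 plexins were all abundant and went different ways. *Plxna1*, a receptor that works with neuropilins for class 3 semaphorins and also binds class 6 semaphorins, rose from 776.1, 903.1 and 784.4 CPM in Ctrl to 1172, 1104 and 1163 CPM in AclyM-KO. All AclyM-KO libraries were above all Ctrl libraries, and the mean was 139.6% of Ctrl (log2 fold change 0.48, SE 0.053, edgeR adjusted p = 9.75e-06). The 95% interval of 0.37 to 0.59 reaches the limit of 0.58, which the estimate itself did not pass. *Plxna1* spans chr6:89316314-89362620 on the minus strand, and exons of *Gm26811*, on the opposite strand, cover 10.7% of the exonic bases of its row. Whether the counting used strand is not given in the sources used here, so reads of that gene may be among its counts. No other member had exonic bases covered in this way.

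*Plxnd1*, a receptor for class 3 and class 4 semaphorins that is best known from blood vessels, fell. It was at 865.4, 875.1 and 833.1 CPM in Ctrl and at 665.0, 661.1 and 704.5 CPM in AclyM-KO. The spread within each group was small beside the gap between them, and the mean fell to 78.9% of Ctrl (log2 fold change -0.34, SE 0.042, edgeR adjusted p = 3.08e-05). *Plxnb2*, which encodes a receptor for class 4 semaphorins, fell from 471.3, 466.3 and 461.0 CPM to 407.8, 392.5 and 392.6 CPM. Its libraries were the tightest of the plexins, and a log2 fold change of -0.23 (SE 0.043, edgeR adjusted p = 0.00115) was well outside their spread. *Plxnd1* spans chr6:115954811-115995005 and *Plxnb2* chr15:89155549-89180788, both on the minus strand.

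*Plxnc1* (chr10:94790866-94944835, minus strand), the receptor of the membrane semaphorin Sema7A, had 440.4, 464.3 and 436.4 CPM in Ctrl and 427.1, 438.5 and 447.8 CPM in AclyM-KO. The groups overlapped and the means, 447 ± 15.1 and 438 ± 10.4 CPM (SD, n = 3), differed by less than the spread. The 95% interval of the log2 fold change ran from -0.13 to 0.066 (edgeR adjusted p = 0.676), so a change as large as that of *Plxnd1* lay outside it.

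In counts, the ratio of *Plxna1* to *Plxnd1* was 0.897, 1.03 and 0.942 in Ctrl and 1.76, 1.67 and 1.65 in AclyM-KO. It was near 1 in Ctrl and well above it in every AclyM-KO library (0.957 ± 0.0688 against 1.70 ± 0.0598, SD, n = 3, exact permutation test, two-sided p = 0.1). Since *Plxna1* was higher and *Plxnd1* lower in every AclyM-KO library, this ratio could not overlap. Its p-value was thus fixed beforehand and adds no evidence to that of the single genes. Against *Plxnc1*, whose groups overlapped, *Plxna1* went from 1.83 ± 0.0969 to 2.62 ± 0.115 with no overlap (exact p = 0.1).

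**Figure D2:**
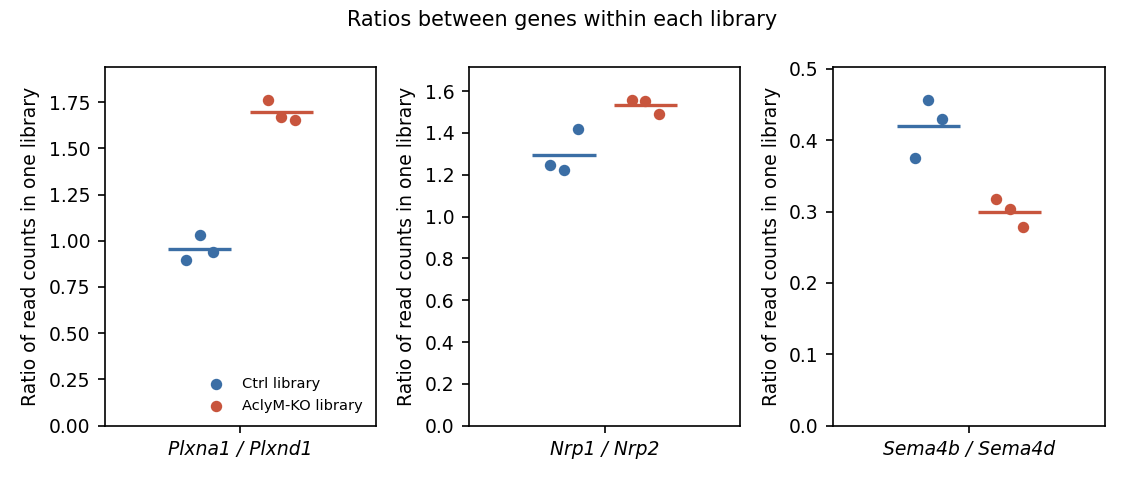
Ratio of the read counts of a pair of genes within each library, for 3 Ctrl (blue) and 3 AclyM-KO (red) libraries, with group means as bars and axes starting at 0. *Plxna1* over *Plxnd1* rises from a mean of 0.957 to 1.70, *Nrp1* over *Nrp2* from 1.30 to 1.53, and *Sema4b* over *Sema4d* falls from 0.420 to 0.300, each with no overlap between the groups. The pairs were chosen after the values had been seen, and for *Plxna1* over *Plxnd1* the gap follows from the levels of the single genes.

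The neuropilins differed from each other. *Nrp1* (chr8:128358604-128503363, plus strand), the co-receptor of semaphorin 3A and VEGF-A, had 686.4, 762.5 and 755.8 CPM in Ctrl and 781.9, 762.5 and 723.7 CPM in AclyM-KO. The groups overlapped, and the log2 fold change was 0.041 with a 95% interval of -0.062 to 0.14 (edgeR adjusted p = 0.584). Without the first Ctrl library, the lowest of the 6, the estimate was -0.0084, so no direction is given for it.

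*Nrp2*, the co-receptor of semaphorin 3F and VEGF-C, was at 550.4, 624.3 and 532.6 CPM in Ctrl and at 501.7, 490.2 and 486.1 CPM in AclyM-KO. The Ctrl libraries were spread out and the AclyM-KO libraries close together, all of them under the lowest Ctrl library (569 ± 48.6 against 493 ± 8.07 CPM, SD, n = 3). The log2 fold change was -0.21 (SE 0.055, edgeR adjusted p = 0.0113), the smallest among the 8 that passed, and without the second AclyM-KO library its adjusted p was 0.0565. The ratio of *Nrp1* to *Nrp2* was 1.25, 1.22 and 1.42 in Ctrl and 1.56, 1.56 and 1.49 in AclyM-KO, with no overlap (exact permutation test, two-sided p = 0.1).

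*Nrp2* is also the member with most transcript rows, and its rows show what the counts can and cannot tell of isoforms. The gene spans chr1:62703285-62818695 on the plus strand, and the last exon of its 6 rows starts at either of 2 places. In 4 rows the last exon is chr1:62815333-62818695 (the downstream last exon, 3363 bases). In the remaining 2 rows the last exon starts upstream, at the same base in both, and spans chr1:62795709-62796981 (1273 bases) in one and chr1:62795709-62799314 (3606 bases) in the other. The alternative ends give the protein different membrane-spanning and cytoplasmic parts. The first 30 bases of the downstream and upstream last exons, all coding, are shown with the short coding pieces in which the 4 rows differ among themselves, read from GENCODE M21 transcripts on the plus strand of GRCm38. The exon before can be longer by chr1:62786302-62786316, and the 51-base exon is chr1:62812534-62812584.
Downstream last exon: atgaatatgaaggagattggagcaactctt
Upstream last exon: ggggcaccctcccgccagggaccgagccca
15-base extension: gtgaggattttaaag
51-base exon: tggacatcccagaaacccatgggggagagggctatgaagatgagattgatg

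The 4 rows with the downstream last exon had the same counts in all 6 libraries (8147, 7633 and 7018 in Ctrl, 7354, 7619 and 7094 in AclyM-KO), although they differ by the 15-base and 51-base pieces. The table thus cannot separate these isoforms. The 2 rows with the upstream last exon also shared their counts, which were 53.9, 54.2 and 54.3% as large as those of the other 4 in Ctrl and 53.3, 55.2 and 55.6% as large in AclyM-KO. The groups overlapped in this ratio of row counts. It is not the share of either end, since reads of the exons common to all rows can be in both counts and reads particular to an end were not counted separately.

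*Unc5b* encodes a netrin-1 receptor with a death domain and had by far the lowest level of the 10. It was counted with 22, 19 and 14 reads in Ctrl and with 94, 111 and 71 reads in AclyM-KO. In CPM these were 1.49, 1.55 and 1.06 against 6.41, 7.14 and 4.87. The lowest AclyM-KO library was far above the highest Ctrl library, and the mean was 4.49-fold higher (1.37 ± 0.266 against 6.14 ± 1.16 CPM, SD, n = 3). The log2 fold change was 2.16 (SE 0.23, 95% interval 1.66 to 2.66, edgeR adjusted p = 8.17e-06), the 21st largest in size among the 12023 genes tested, an increase already known when the gene was listed. The exact 95% Poisson interval of the highest Ctrl count was 13.8 to 33.3 and that of the lowest AclyM-KO count 55.5 to 89.6. These intervals cover counting error only, since PCR reads without molecular identifiers are not independent molecules. *Unc5b* spans chr10:60762593-60831581 on the minus strand, and its row stands for a transcript of 17 exons.

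**Figure D3:**
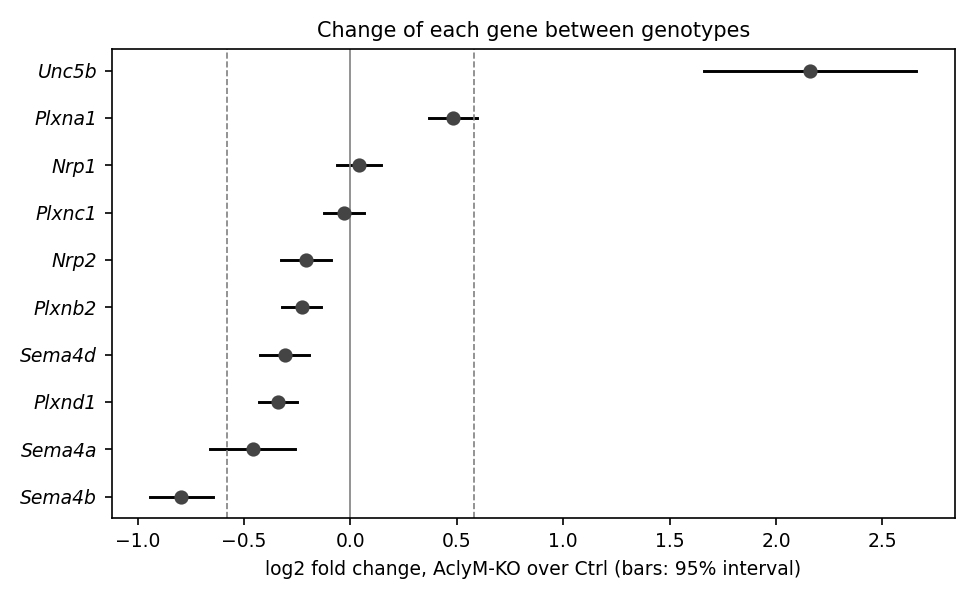
Log2 fold change of AclyM-KO over Ctrl (x axis) for the 10 guidance genes, as points with 95% intervals from the edgeR fit, where dashed lines mark 0.58 in both directions. *Unc5b* at 2.16 and *Sema4b* at -0.79 lie beyond the dashed lines with their intervals, and the intervals of *Nrp1* and *Plxnc1* span 0.

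Levels of different genes were set side by side as CPM per kilobase of the GENCODE transcript paired with the row. In Ctrl, *Nrp1* stood highest at 204 ± 11.7 CPM per kilobase (SD, n = 3), followed by *Plxnd1* at 124 ± 3.18. *Plxna1* (90.9 ± 7.86) and *Nrp2* (89.5 ± 7.65) came next and did not differ beyond their spread. *Plxnb2* (71.8 ± 0.796), *Plxnc1* (61.2 ± 2.07) and *Sema4d* (30.2 ± 0.764) followed on the same scale. *Sema4b* (14.4 ± 1.22), *Sema4a* (9.34 ± 0.997) and *Unc5b* (0.233 ± 0.0454) closed the order.

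In AclyM-KO, *Nrp1* kept the first place at 210 ± 8.24 CPM per kilobase, and *Plxna1* (127 ± 4.07) stood above *Plxnd1* (98.0 ± 3.47). *Nrp2* was at 77.5 ± 1.27, and *Plxnb2* (61.2 ± 1.36) and *Plxnc1* (60.0 ± 1.42) no longer differed beyond their spread. *Unc5b*, at 1.05 ± 0.198 CPM per kilobase, remained the lowest in this group too. Transcript lengths are those of 1 annotated isoform per gene, so the order rests on that choice.

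Over the 6 libraries, the genes whose log2 CPM was most like that of *Unc5b*, among 11605 candidates with a mean of at least 1 CPM, were *Ctsk* (Pearson r 0.997), *Bicdl1* (0.996), *Ddit3* (0.995) and *Hgsnat* (0.995). The points share their libraries and fall into the 2 genotypes, and the values are given as a description. *Ctsk* encodes the protease cathepsin K, and *Ddit3* a transcription factor of the stress response. Their own log2 fold changes were 1.04 and 0.43, that of *Hgsnat* 0.63 and that of *Bicdl1* 1.05, and the highest of their edgeR adjusted p-values was 0.0109.

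Among the 17 genes of netrins, repulsive guidance molecules and their receptors other than *Unc5b*, 7 were tested. Of these, 3 were called higher and none lower in edgeR and DESeq2 alike (2.98% and 2.57% of all genes tested in edgeR, for a list drawn up with results of these data known). None was lower at an unadjusted edgeR p under 0.05. The log2 fold changes of all 7 were above 0 with a median of 0.27, where the median over all genes tested was 0.0014. Both the 3 and the 7 include *Flrt3*, whose passing of the filter is described below, and nothing is read from these counts. *Ntn1*, the gene of netrin-1, rose from 5.88, 6.46 and 6.22 CPM in Ctrl to 9.21, 10.2 and 9.39 CPM in AclyM-KO. Its groups were well apart (log2 fold change 0.63, SE 0.13, edgeR adjusted p = 0.00238). *Unc5a*, a further netrin receptor of the same family, rose from 6.15, 6.22 and 6.76 CPM to 10.4, 10.7 and 11.2 CPM (log2 fold change 0.76, edgeR adjusted p = 4.57e-04). *Flrt3*, a membrane protein gene whose product binds Unc5 receptors, rose from 13, 6 and 8 reads to 25, 23 and 28 reads (log2 fold change 1.33, edgeR adjusted p = 0.0084). It was above the filter on low counts, 0.678 CPM in 3 libraries, in 1 Ctrl and 3 AclyM-KO libraries, so it was tested through the group in which it was higher. Its relative *Flrt2* was the most abundant of the list, at 371 ± 44.4 CPM in Ctrl and 375 ± 16.9 CPM in AclyM-KO (edgeR adjusted p = 0.884). *Rgmb* (log2 fold change 0.26, adjusted p = 0.17) and *Ntng2* (0.13, adjusted p = 0.45) did not pass in edgeR.

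**Figure D4:**
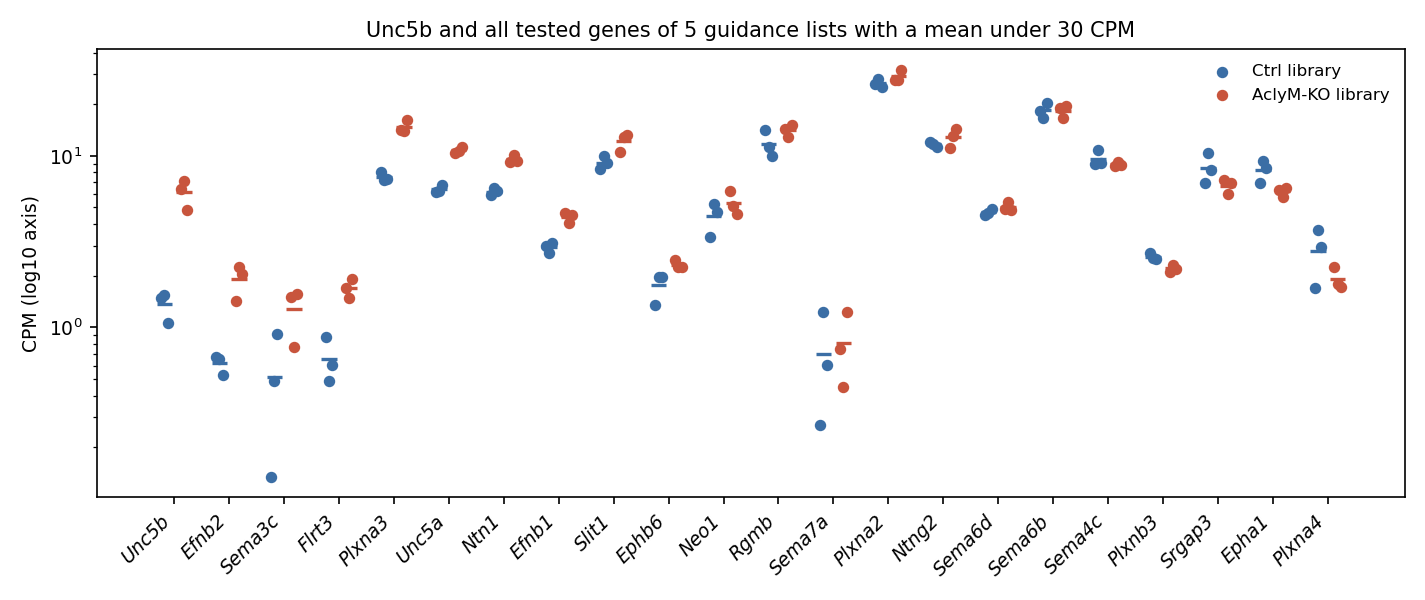
CPM (log10 axis) of *Unc5b* and every tested gene with a mean under 30 CPM from the lists of netrins and their receptors, other plexins, other semaphorins, ephrins and Eph receptors, and Slit and Robo genes, in each of the 3 Ctrl (blue) and 3 AclyM-KO (red) libraries, with group means as bars and genes in order of log2 fold change. Of the 22 genes, 9 are higher in every AclyM-KO library, 2 (*Plxnb3* and *Epha1*) are lower in every one, and the groups of the remaining 11 overlap, where 40.2% of all genes tested had groups that did not overlap. The 9 include *Unc5b*, whose increase was known when it was listed, and *Flrt3* and *Efnb2*, which were tested through the AclyM-KO group.

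Of 5 other plexin genes, 4 were tested, and *Plxna3*, a semaphorin receptor close to *Plxna1*, was called higher (2.98% of all genes tested were called higher). It had 8.04, 7.20 and 7.29 CPM in Ctrl and 14.1, 13.9 and 16.1 CPM in AclyM-KO (log2 fold change 0.96, edgeR adjusted p = 2.85e-05), while *Plxna2* went from 26.5 ± 1.38 to 29.1 ± 2.38 CPM (adjusted p = 0.247) and *Plxnb3* from 2.58 ± 0.106 to 2.21 ± 0.102 CPM (adjusted p = 0.496). Of 17 other semaphorin genes, 5 were tested and none passed in edgeR or DESeq2, with *Sema6b* (18.4 ± 1.92 CPM in Ctrl, log2 fold change -0.0073), *Sema4c* (9.63 ± 1.08 CPM, -0.10) and *Sema6d* (4.71 ± 0.207 CPM, 0.11) as the most abundant. Among the class 3 genes, which encode ligands of neuropilins, *Sema3c* alone was above the filter. It had 2, 6 and 12 reads in Ctrl and 22, 12 and 23 in AclyM-KO (log2 fold change 1.34, edgeR adjusted p = 0.0569). It was above the filter in 1 Ctrl and 3 AclyM-KO libraries, and so was tested through the group in which it was higher, and nothing is read from its being the 1 gene of that list at an unadjusted p under 0.05 or from its call by limma-voom.

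Of 8 genes of VEGF ligands and receptors, a family that shares the neuropilins as co-receptors, 6 were tested and 2 were called, both lower (2.57% of all genes tested were called lower). The other 4 had log2 fold changes above 0 and did not pass in edgeR, among them *Vegfd* (1.04, adjusted p = 0.0914) and *Vegfc* (0.91, adjusted p = 0.141), each above the filter in 1 Ctrl library. *Vegfa* went from 95.9, 144.0 and 118.7 CPM in Ctrl to 53.7, 59.5 and 49.0 CPM in AclyM-KO, with a wide spread in Ctrl and no overlap (log2 fold change -1.14, SE 0.11, edgeR adjusted p = 2.46e-06). *Flt1*, the VEGF receptor 1 gene, went from 198.8, 281.5 and 215.3 CPM to 155.7, 144.2 and 144.7 CPM (log2 fold change -0.64, edgeR adjusted p = 1.29e-04). Without the second Ctrl library, the highest for both genes, *Flt1* was at -0.49 and no longer called. *Vegfb* had 39.98 ± 2.82 CPM in Ctrl and 40.4 ± 2.77 CPM in AclyM-KO (adjusted p = 0.925).

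Among 10 genes of further semaphorin and plexin co-receptors, 7 were tested and *L1cam* was called higher (2.98% of all genes tested were called higher). *L1cam*, an adhesion molecule gene whose product pairs with neuropilin-1, went from 9.05, 12.9 and 7.74 CPM to 31.65, 27.02 and 27.82 CPM (log2 fold change 1.55, edgeR adjusted p = 8.94e-07). *Trem2*, *Tyrobp* and *Itgb1* were the most abundant, at log2 fold changes of 0.29, -0.17 and -0.0021, and the last did not pass. *Cd72*, the *Sema4d* receptor gene on lymphocytes and macrophages, fell by 0.42 on the log2 scale (edgeR adjusted p = 3.61e-05).

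Of 30 signalling genes downstream of plexins, neuropilins and Unc5 receptors, 26 were tested, of which 6 rose and 6 fell in edgeR, where 12.4% of all genes tested rose and 12.6% fell. *Rnd3*, a small GTPase gene, was the one called, where 5.55% of all genes tested were called, and went from 2.70, 4.17 and 2.73 CPM to 8.73, 7.98 and 8.09 CPM (log2 fold change 1.38, edgeR adjusted p = 4.94e-05). The most abundant were the actin-severing factor gene *Cfl1* (0.085, adjusted p = 0.17), and the GTPase genes *Rap1b* (0.15, adjusted p = 0.0231) and *Rac1* (0.23, adjusted p = 0.00194), with edgeR log2 fold changes in brackets.

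The remaining guidance families had few tested members. Of 22 ephrin and Eph genes, 4 were tested, and *Efnb2* was called higher from 10, 8 and 7 reads to 21, 35 and 30 reads (log2 fold change 1.61, edgeR adjusted p = 0.00233), also tested through the AclyM-KO group, with 1 Ctrl library above the filter. *Efnb1* was called higher at 0.58 (edgeR adjusted p = 0.0318), where 2.98% of all genes tested were called higher, but lost the call in 13 of 20 alternatives, among them DESeq2 and the removal of any library. *Epha1*, the most abundant of that list (edgeR adjusted p = 0.0596), and *Ephb6* (0.261) did not pass. Of 10 Slit and Robo genes, 3 were tested and none was called in edgeR or DESeq2, although *Slit1* rose by 0.42 and *Srgap2* fell by 0.21 on the log2 scale (edgeR adjusted p = 0.025 and 0.00619), and *Srgap3* was at -0.34 (adjusted p = 0.14).

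Markers of other cells were summed beside these results. Neutrophil markers (8 genes, 5 tested) summed to 34.3 ± 1.30 CPM in Ctrl and 65.1 ± 2.43 CPM in AclyM-KO (SD, n = 3), led by the collagenase gene *Mmp8* at 16.9 ± 2.18 and 40.1 ± 1.77 CPM, and *S100a8* and *S100a9* were also called higher. The granule protein genes *Ltf* (42, 48 and 58 reads in Ctrl, 67, 74 and 70 in AclyM-KO) and *Ngp* (69, 67 and 59 reads in Ctrl, 104, 95 and 83 in AclyM-KO) were detected in all libraries and did not pass (edgeR adjusted p = 0.206 and 0.108), although their groups did not overlap. The other 3 genes of the list, *Ly6g*, *Camp* and *Retnlg*, had at most 4 reads in any library. The part of such cells in the increases of *Unc5b* and of other guidance genes of low abundance was not tested. Endothelial markers (8 genes, 1 tested, led by *Kdr*, with *Emcn* and *Cldn5* at 0) summed to 5.17 ± 0.274 CPM in Ctrl and 5.78 ± 0.196 CPM in AclyM-KO. Dendritic cell markers (6 genes, led by *Zbtb46*) summed to 3.14 ± 0.876 and 3.54 ± 0.519 CPM, fibroblast markers (7 genes, led by *Col1a2*, *Lum* at 0) to 0.586 ± 0.353 and 1.21 ± 0.260 CPM, and lymphocyte markers (6 genes with a row, led by *Cd79a*, *Ncr1* at 0) to 0.358 ± 0.279 and 0.464 ± 0.222 CPM.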

How the data were processed

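The authors made strand-specific mRNA libraries from IL-4-treated BMDMs and aligned the reads to mm10 with STAR 2.5.2b (CASAVA 1.8.2 is also named in the submitters' processing notes). The deposited values are raw counts per RefSeq transcript. The counting program is not given in the sources used here. Of 35745 rows, 35440 were named through RefSeq's GRCm38.p6 table and 188 through GENCODE M21, and 117 without a gene (0.370 to 1.38% of counts) were left out. How reads shared by isoforms were counted is not given either. Of 6089 genes with several rows, 3684 had identical counts on all of them. *Nrp2* is not among these, but some of its rows shared their counts although the isoforms differ in exons. Rows are thus not independent, and the one with the highest total was kept for each gene. Positions, lengths and exons are from GENCODE M21, and promoter windows from RefSeq.

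The fit was made in R 4.3.3 with edgeR 4.0.16, by glmQLFit and glmQLFTest on genotype after filterByExpr and TMM scaling, with Benjamini-Hochberg adjustment over 12023 genes. SE is the log2 fold change over the square root of the F statistic. CPM uses TMM-scaled library sizes. The precision is set by 12151975 to 15587283 counts per library. Exact permutation tests compared 3 against 3 libraries. The chi-square per gene between libraries of a group was 2.32 to 7.57, above sampling noise, so no pair was taken for 1 library deposited more than once. This does not show whether the libraries came from separate mice. The test was run on simulated data first, and no result of that run is given here. DESeq2 1.42.0, limma-voom (limma 3.58.1), other scalings, filters, rows and limits, a replicate block, thinning and the removal of each library were alternatives.

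The members and lists were chosen with earlier results of these data known. Besides *Acly* and the members, the text names the called genes and the 3 most abundant tested genes of each pathway list, the 5 genes most like *Unc5b*, and the leading and called marker genes. *Sema3c*, *Vegfc*, *Vegfd* and *Cd72*, and marker genes with few or no reads, were named after their values were seen. Naive BMDMs were not analysed here. Results for some single genes that this rule or the lists name are not reported here.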

Additional observations from a re-analysis of the deposited data

How the results depend on the processing

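Of the 10 genes, *Unc5b* stayed called under all 20 alternatives, with log2 fold changes of 2.01 to 2.30 when each library was left out. The same 8 genes kept an adjusted p under 0.05 in 18 of 20, the exceptions being a test against a log2 fold change of 0.58 (glmTreat), where *Unc5b* alone passed, and the fit without AclyM-KO replicate 2, where *Nrp2* (-0.20, adjusted p = 0.0565) did not. Leaving out a library moved *Nrp1* between -0.0084 (without Ctrl replicate 1) and 0.071. Counts of calls moved with the limits and not with tool, scaling or filter by over 1.5 times. With no fold change limit, 1485 genes were higher and 1511 lower, with 2 and 6 of the members. With a limit of 1, 145 were higher and 80 lower, with 0 members lower, and with glmTreat 77 and 41, again with 0 members lower. Leaving out 1 library gave 315 to 374 higher and 271 to 317 lower calls. DESeq2 called 297 higher and 251 lower. With the replicate block, 350 genes were higher and 302 lower, with the same 2 members called, and the replicate numbers did not pair the libraries (correlations of deviations of -0.065, 0.050 and -0.031 between same-numbered libraries). The median log2 fold change of all genes moved from 0.0014 to -0.018 at most between scalings. *Unc5b*, *Flrt3* and *Efnb2* rest on few reads in Ctrl.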
